A study of Mus musculus with 80 samples.

Results

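The genes described here are 5 enzymes that act on the proteins of the circadian clock after translation. They are the protein kinase genes Csnk1d and Csnk1e and the F-box genes Btrc, Fbxw11 and Fbxl21, and they were found by their symbols in the count table, not by a measured value. All 5 are among its 78275 genes, and all 5 are among the 21187 genes that passed the filter on low counts. The livers came from C57BL/6J mice, an inbred strain, purchased at 8 to 12 weeks of age, housed on a standard chow and released from a light-dark cycle into constant darkness. Control mice were fed ad libitum throughout, and fasted mice lost their food at circadian time (CT) 10, so that the fasted group of CT8 was still fed. Livers of 2 males and 2 females per treatment were taken every 4 h at 10 times from CT8 to CT44, which gives 80 libraries, 40 per treatment and 4 per treatment and time, each from the left lobe of another mouse. All mice were given as C57BL/6 in genotype, with no other allele named, and both treatments shared the strain, the diet before CT10 and the darkness.

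Casein kinase 1 delta and epsilon, the products of Csnk1d and Csnk1e, phosphorylate the repressor proteins PER1 and PER2, and a phosphorylated PER can be bound by the F-box proteins beta-TrCP1 (from Btrc) and beta-TrCP2 (from Fbxw11). An F-box protein is the subunit of an SCF ubiquitin ligase that recognises the substrate, and ubiquitination sends PER to the proteasome. FBXL21 is an F-box protein that binds the cryptochromes CRY1 and CRY2, which repress transcription together with PER. The activity of these enzymes is set largely at the protein level, and the values below are levels of their transcripts.

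Each library held 25534901 to 59927771 gene counts, with a median of 42303883. In all 80 libraries the sex markers Xist and Ddx3y went with the sex in the title. The library of the second control female at CT8 stood apart, with 31.3% of its counts on 18S ribosomal RNA against at most 4.88% in the others, and leaving it out ended no call in the fasting tests or in the control rhythm. With fasting, 4 of 5 Kupffer cell markers, 4 of 5 cholangiocyte markers and 4 of 5 stellate cell markers fell. So did 1 of 5 hepatocyte, 2 of 5 endothelial and 1 of 5 blood cell markers, where 32.9% of all genes tested fell. Among the rest, 3 of 5 hepatocyte, 2 of 5 endothelial and 1 of 5 stellate cell markers rose, where 29.5% of all genes did. None of the markers was at 0 in all libraries. In whole liver, fewer cells of a type and less RNA per cell cannot be told apart.

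Levels were compared between the genes as CPM (counts scaled to library size by TMM) per kilobase of merged exons. Csnk1d was the highest, at a median of 14.2 CPM per kilobase over 80 libraries and a range of 11.6 to 18.7. Fbxw11 followed at 8.74 (7.39 to 11.3), Csnk1e at 1.40 (1.03 to 2.39), Btrc at 0.909 (0.508 to 1.24) and Fbxl21 at 0.258 (0.0805 to 0.473). The order was the same in 80 of 80 libraries, although the ranges of Csnk1e and Btrc overlap. Within each pair of paralogues, the delta kinase and beta-TrCP2 therefore had the higher transcript level in this tissue. The place of Csnk1e above Btrc rests on the merged exon length, 6590 bases for Csnk1e and 16908 for Btrc. In CPM, without the length, Btrc was higher, with a median of 15.4 against 9.24 over 80 libraries. How much of the merged length is transcribed in liver was not tested. Fbxl21 rests on few reads, 17 to 111 counts per library, whereas Csnk1d had 1377 to 4591.

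All 5 genes are protein coding. Their positions are given on GRCm38 from GENCODE M21, an earlier build than the GRCm39 of the files. Csnk1d (ENSMUSG00000025162.19) lies on the minus strand at chr11:120961749-120991330 and Csnk1e (ENSMUSG00000022433.22) on the minus strand at chr15:79417856-79455566. Btrc (ENSMUSG00000025217.16) lies on the plus strand at chr19:45363734-45530013, Fbxw11 (ENSMUSG00000020271.18) at chr11:32642724-32746816 and Fbxl21 (ENSMUSG00000035509.18) at chr13:56522472-56537898, both also on the plus strand. Antisense genes overlap Csnk1d (Gm28192, 921 bases), Csnk1e (Gm16059, 4410 bases) and Btrc (Gm6807, 888 bases), and reads of these partners cannot be told apart here because the strand setting of the counting is not given in the sources used here. Nor is it given how reads shared by paralogues were counted.

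The promoters of Fbxl21, Csnk1e and Fbxw11 are shown, since the reference table used here has entries for these 3 genes and 0 for Csnk1d and Btrc, whose promoters were not analysed here. The 250 bases before the start site are printed 5′ to 3′ on the strand of the gene, from RefSeq on GRCm38.p6, with CpG dinucleotides in capitals. The windows lie at chr13:56522222-56522471 (plus strand), chr15:79442144-79442393 (minus strand) and chr11:32642305-32642554 (plus strand). That of Csnk1e is the most upstream of its 4 starts in the reference table. The GENCODE gene reaches further upstream, to chr15:79455566, and a start there was not searched.
Fbxl21: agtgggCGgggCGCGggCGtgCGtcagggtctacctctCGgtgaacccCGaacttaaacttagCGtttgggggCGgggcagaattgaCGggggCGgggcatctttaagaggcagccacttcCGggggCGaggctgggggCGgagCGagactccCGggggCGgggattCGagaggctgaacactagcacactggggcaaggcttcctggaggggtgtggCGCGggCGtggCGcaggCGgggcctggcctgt
Csnk1e: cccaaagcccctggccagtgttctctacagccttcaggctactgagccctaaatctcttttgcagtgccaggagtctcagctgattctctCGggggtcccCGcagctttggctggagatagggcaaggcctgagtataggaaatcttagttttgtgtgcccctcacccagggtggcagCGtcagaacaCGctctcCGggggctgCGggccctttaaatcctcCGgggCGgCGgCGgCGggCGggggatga
Fbxw11: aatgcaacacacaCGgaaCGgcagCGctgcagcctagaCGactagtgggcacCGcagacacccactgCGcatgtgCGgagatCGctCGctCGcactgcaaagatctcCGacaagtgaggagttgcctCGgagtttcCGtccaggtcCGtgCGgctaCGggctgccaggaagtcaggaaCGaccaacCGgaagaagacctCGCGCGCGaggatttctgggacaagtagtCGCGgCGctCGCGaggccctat

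These windows hold 23, 12 and 27 CpG dinucleotides, in the order printed, against a median of 6 over 32851 promoters. Their GC content is 69.2%, 61.2% and 62%, against a median of 52.4%. The other 3 Csnk1e windows, not printed, hold 29, 46 and 43 CpG dinucleotides, with a GC content of 71.6%, 80.8% and 80.8%. Both strands of the 300-base windows (50 bases past the start included) were searched for letters bound by clock factors, by nuclear receptors or by factors of cyclic AMP signalling. The E-box CACGTG, present in 7.15% of all promoters, the related CACGTT (4.68%), the D-box TTATGTAA (0.938%), the receptor hexamer AGGTCA (16.3%) and the cyclic AMP element TGACGTCA (1.79%) were found in none of the 6 windows of these 3 genes.

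The first comparison asked whether the transcripts differed between fasted and control livers. In the mean of the 9 times from CT12 to CT44, 5 of 5 genes passed the test, where 62.5% of all genes tested did. Both kinases and Fbxw11 rose (29.5% of all genes rose), and Fbxl21 and Btrc fell (32.9% fell). The changes were small, of 0.31 or less on the log2 scale, and the median of all genes was -0.02. As differences of fasted minus control on the log2 scale, they were 0.20 ± 0.021 (SE) for Csnk1d (adjusted p = 1.1e-11, edgeR) and 0.28 ± 0.038 for Csnk1e (adjusted p = 2.7e-08). Fbxw11 differed by 0.11 ± 0.022 (adjusted p = 1.9e-05), Fbxl21 by -0.31 ± 0.087 (adjusted p = 0.0020) and Btrc by -0.09 ± 0.031 (adjusted p = 0.015).

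The fall of Btrc was the least firm of these calls. Without the second male replicates its adjusted p was 0.058, without the second female replicates 0.13 and in males alone 0.35. Both calls of a fall were lost when the libraries of CT20 were left out, which gave a mean difference of -0.04 for Btrc (adjusted p = 0.30) and -0.19 for Fbxl21 (adjusted p = 0.080). That of Btrc was also lost without CT16 (adjusted p = 0.091). In males alone Fbxl21 differed by -0.13 ± 0.12 (adjusted p = 0.40) and in females alone by -0.48 ± 0.12 (adjusted p = 0.0014). The summed level of the 5 Kupffer cell markers ranged from 178 to 633 CPM in controls and from 122 to 389 CPM in fasted livers. For cholangiocyte markers the ranges were 24.6 to 66.0 and 6.78 to 50.3 CPM, and for stellate cell markers 182 to 338 and 160 to 340 CPM. The part of these cells in the result was not tested.

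**Figure D1:**
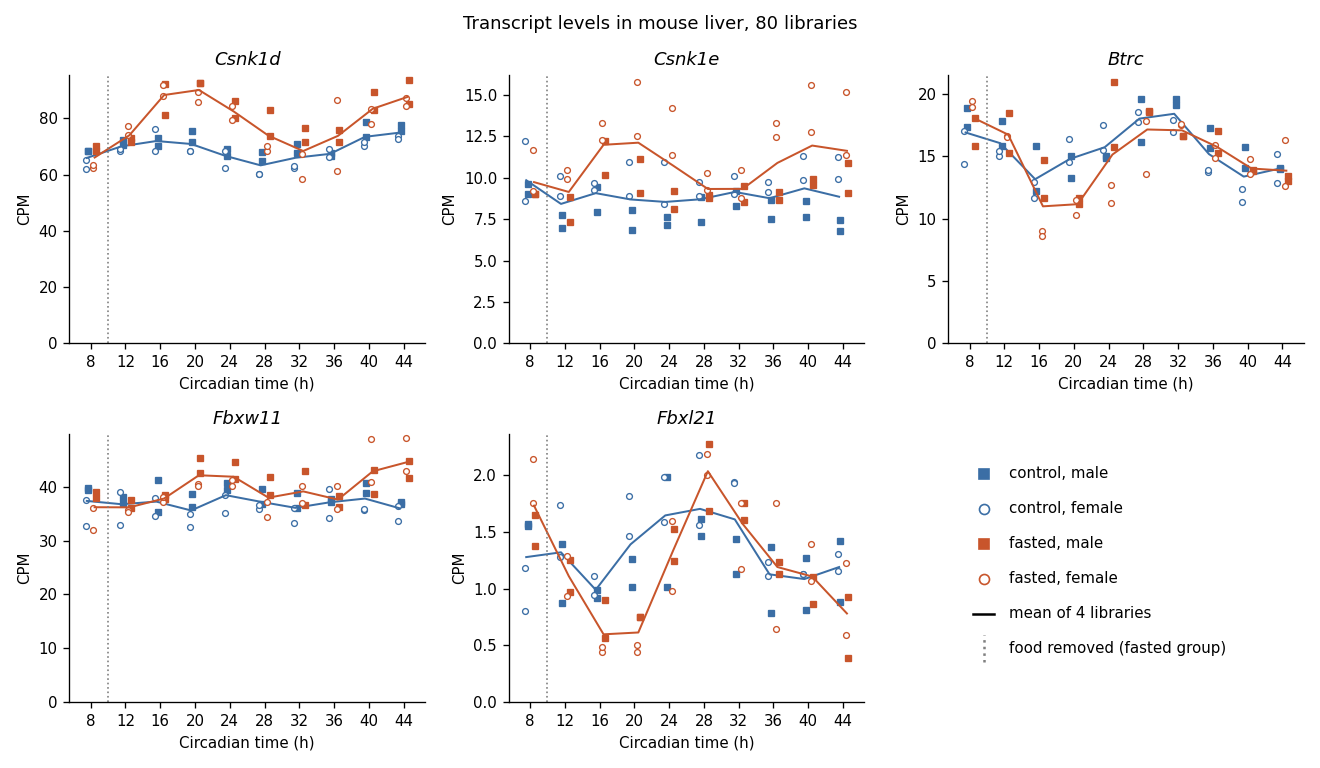
Transcript level in CPM (vertical axes, from 0) against circadian time in h (horizontal axes) for the 5 genes in 80 libraries. Squares are males and open circles females, lines join means of 4 libraries, and the dotted line marks the removal of food. Fasted Csnk1d libraries at CT20 lie between 85.7 and 92.6 CPM, above all controls of that time, and fasted Fbxl21 libraries between 0.442 and 0.753 CPM, below all controls.

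Single times were tested next, and 18 of 45 pairs of gene and time were called, 14 higher and 4 lower in fasted livers. At CT12, 2 h into the fast, 0 of 5 genes passed edgeR's test (1.60% of all genes did), with 0 at an unadjusted p under 0.05 and 0 by limma-voom or DESeq2. At CT16, 4 of 5 passed (23.4% of all genes) and at CT20, 5 of 5 (36.6%). The number then fell to 2 at CT24 (24.1%) and 1 at CT28 (21.0%), to 0 at CT32 (17.7%) and to 0 at CT36 (26.8%). At CT32 no gene had an unadjusted p under 0.05 by edgeR, limma-voom or DESeq2, whereas at CT36 edgeR gave 2 such genes and DESeq2 called 1. In the second subjective night 3 genes passed at CT40 (39.9%) and 3 at CT44 (39.4%), each time Csnk1d, Csnk1e and Fbxw11. The 18 calls became 6 without the first male replicates and 7 without the second male replicates.

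**Figure D2:**
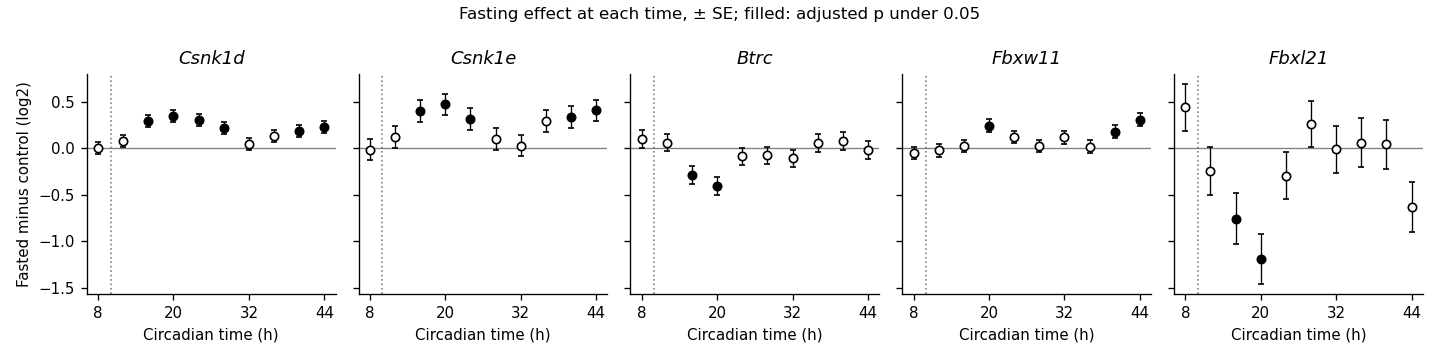
Fitted difference of fasted minus control on the log2 scale (vertical axis) against circadian time in h (horizontal axis), with SE bars, for each gene. Filled points have an adjusted p under 0.05 and open points do not, and the dotted line marks the removal of food. The 2 kinases lie above 0 at 9 of 9 times after it, whereas the fall of Fbxl21 reaches -1.19 at CT20 and that of Btrc -0.40.

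Csnk1d, the more abundant kinase transcript, was higher in fasted livers at 9 of 9 times and was called at 6 of them. At CT20 the control females had 68.3 and 68.4 CPM and the control males 75.3 and 71.4 CPM. The fasted females had 89.3 and 85.7 CPM and the fasted males 92.5 and 92.6 CPM. The groups did not overlap at that time, and the fitted difference was 0.35 ± 0.063 on the log2 scale (adjusted p = 2.1e-05). They did not overlap at 5 of the 9 times, CT16, CT20, CT24, CT28 and CT44. At these times 23.4%, 36.6%, 24.1%, 21.0% and 39.4% of all genes were called. The share of all genes without overlap was not counted, so that lack of overlap, here and below, is a description. At CT32 the difference was 0.05 ± 0.063, with 58.4 to 76.4 CPM in fasted and 62.5 to 70.8 CPM in control livers.

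Csnk1e was likewise higher in the mean of fasted livers at 9 of 9 times and called at 5. At CT20 its level was 8.90 and 11.0 CPM in control females, 6.87 and 8.03 CPM in control males, 15.8 and 12.5 CPM in fasted females and 11.1 and 9.07 CPM in fasted males. Within each sex the fasted values lay above the control values, but over both sexes the groups overlapped. The females of each treatment lay above its males. The difference at CT20 was 0.47 ± 0.12 on the log2 scale (adjusted p = 0.00094), and its adjusted p was 0.16 without the first male and 0.054 without the first female replicates. The groups were apart over both sexes only at CT16, with 10.2 to 13.3 CPM in fasted and 7.92 to 9.67 CPM in control livers.

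The 2 beta-TrCP genes moved in opposite directions in the mean and at CT20, the only single time at which both were called. Btrc, which encodes beta-TrCP1, had 16.4 and 14.5 CPM in control females at CT20 and 15.0 and 13.2 CPM in control males. Fasted females had 11.5 and 10.3 CPM and fasted males 11.7 and 11.1 CPM, all below the controls, and the difference was -0.40 ± 0.095 (adjusted p = 0.00062). In males alone it was -0.31 (adjusted p = 0.10) and in females alone -0.50 (adjusted p = 0.0082). At CT16 it was -0.29 ± 0.095 (adjusted p = 0.023), carried in the values by the fasted females at 9.04 and 8.59 CPM, while 1 fasted male, at 11.66 CPM, lay just below the lowest control at 11.68 CPM and the other, at 14.7 CPM, lay within the control range. This call was lost without the first male (adjusted p = 0.095), the second male (0.13) and the second female replicates (0.22). From CT24 on no time was called for Btrc.

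Fbxw11, which encodes beta-TrCP2, was called at CT20, CT40 and CT44, each time higher in fasted livers. At CT20 the control females had 34.9 and 32.5 CPM, the control males 38.7 and 36.2 CPM, the fasted females 40.5 and 40.2 CPM and the fasted males 45.3 and 42.5 CPM. The difference was 0.24 ± 0.067 (adjusted p = 0.0032), and its adjusted p was 0.088 without the first male and 0.078 without the second male replicates. At CT44, 34 h into the fast, the 4 fasted values of 41.5 to 49.0 CPM again lay above the control values of 33.7 to 37.1 CPM, with a difference of 0.31 ± 0.067 (adjusted p = 0.00022).

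Fbxl21, the gene of the CRY-binding F-box protein, had the largest single-time change of the 5. At CT20 it stood at 1.47 and 1.81 CPM in control females and at 1.26 and 1.01 CPM in control males. Fasted females had 0.442 and 0.506 CPM and fasted males 0.753 and 0.753 CPM, on 19 to 29 counts per library. All 4 fasted values were below all controls, as at CT16, and the differences were -1.19 ± 0.27 at CT20 (adjusted p = 0.00045) and -0.76 ± 0.28 at CT16 (adjusted p = 0.041). At CT20 the difference was -0.59 in males alone (adjusted p = 0.26) and -1.79 in females alone (adjusted p = 0.0014). The call at CT16 was lost whichever set of replicates was left out (adjusted p from 0.072 to 0.31). By CT28 fasted livers held 1.68 to 2.27 CPM and control livers 1.46 to 2.17 CPM. The difference was 0.26 ± 0.25 at that time and -0.63 ± 0.27 at CT44 (adjusted p = 0.055).

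Whether the fasting effect differed among the 9 times was tested jointly, and 3 of 5 genes passed, where 33.7% of all genes did. They were Fbxl21 (adjusted p = 0.024), Btrc (0.029) and Fbxw11 (0.036), and Csnk1d lay just outside at 0.0504. With the first or second male replicates left out, or the second female replicates, 0 genes were called, and 1 was called without the first female replicates, so that these calls rest on the full set of libraries.

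At CT8, when both groups were fed, 0 of 5 genes differed by edgeR (1.33% of all genes did), and 0 had an unadjusted p under 0.05 by edgeR, limma-voom or DESeq2. The differences ran from -0.05 ± 0.067 for Fbxw11 to 0.44 ± 0.25 for Fbxl21 (adjusted p = 0.49). For Fbxl21 this is a wide interval, with 0.804 to 1.57 CPM in the group that stayed fed and 1.38 to 2.14 CPM in the group that was to be fasted. The lowest of these values, 0.804 CPM on 17 counts, came from the control library rich in ribosomal RNA.

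The second comparison concerned the daily rhythm, fitted as a 24 h cosine. In control livers 3 of 5 genes were rhythmic, where 45.4% of all genes tested were. Between peak and trough Fbxl21 changed by 0.69 (log2), and its fitted peak fell at CT3.3 (adjusted p = 0.00092). Btrc peaked at CT5.3 with 0.44 (adjusted p = 8.6e-07), and Csnk1d peaked at CT17.2 with 0.20 (adjusted p = 5.1e-06). Of these 3 genes, the ligase genes Fbxl21 and Btrc thus peaked in the subjective day and the kinase gene Csnk1d in the subjective night. The fitted differences were 0.08 for Csnk1e (adjusted p = 0.64) and 0.02 for Fbxw11 (adjusted p = 0.93). Fbxl21 was not called in males alone (adjusted p = 0.052) or in females alone (adjusted p = 0.063), although its peak-to-trough difference was 0.68 and 0.70 there.

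In fasted livers 5 of 5 genes were rhythmic (50.8% of all genes tested), with a linear change over the fast in the model. The hours without food rise with circadian time, from 2 at CT12 to 34 at CT44. A daily rhythm and a change over the fast that is not linear therefore cannot be told apart, here and in the comparison below. Fbxl21 had the deepest oscillation, of 1.46 (log2), peaking at CT5.8 (adjusted p = 7.0e-06). Btrc had 0.59 at CT6.9 (adjusted p = 0.00012), Csnk1e 0.40 at CT18.5 (adjusted p = 0.00087), Csnk1d 0.38 at CT19.5 (adjusted p = 3.3e-06) and Fbxw11 0.20 at CT21.1 (adjusted p = 0.0044). The call was lost for Csnk1e in males alone (adjusted p = 0.18), and for Fbxw11 without the filter on low counts (0.20), in females alone (0.11) and without the first male replicates (0.058).

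The rhythms were then compared between treatments over the same times with the same model, and they differed for 4 of 5 genes (25.5% of all genes tested). For Csnk1d (adjusted p = 0.0057) the peak-to-trough difference was 0.21 in control and 0.38 in fasted livers, with peaks at CT17.4 and CT19.6. For Fbxl21 (adjusted p = 0.012) it was 0.73 and 1.46, with peaks at CT3.5 and CT5.8. For Csnk1e (adjusted p = 0.016) it was 0.05 and 0.40, and for Fbxw11 (adjusted p = 0.041) 0.01 and 0.20. Btrc, with 0.45 and 0.58, did not pass (adjusted p = 0.28). The test takes the size of a rhythm and its peak time together, so that a shift of the peak was not tested by itself. In each sex alone 0 of 5 genes passed edgeR's test, and leaving out a set of replicates left 2 genes, or 1 without the second female replicates. The adjusted p over the alternatives ranged from 0.0036 to 0.42 for Csnk1d and from 0.0078 to 0.25 for Fbxl21.

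**Figure D3:**
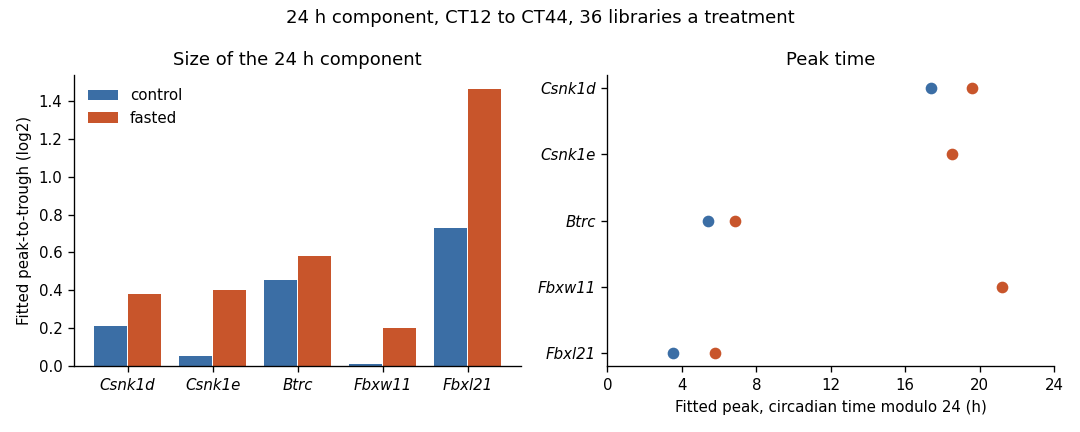
Left, fitted peak-to-trough difference on the log2 scale (bars from 0) for each gene in control and fasted livers, CT12 to CT44, 36 libraries a treatment. Right, fitted peak as circadian time in h, with control points only for the 3 genes that were rhythmic in control livers. The bar of Fbxl21 is 0.73 in control and 1.46 in fasted livers, and the fasted points of Csnk1d, Btrc and Fbxl21 lie to the right of the control points. A shift of the peak was not tested by itself.

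The sexes were compared in the 40 control libraries, where 3 of 5 genes differed (39.2% of all genes). The median of Csnk1e was 9.74 CPM in 20 females (lowest 8.42, highest 12.2) and 7.82 CPM in 20 males (lowest 6.76, highest 9.62). The 12.2 CPM came from the control CT8 library rich in ribosomal RNA. Csnk1e was higher in females by 0.30 ± 0.052 on the log2 scale (adjusted p = 8.0e-06, edgeR). This call held under all 12 alternatives. Fbxw11 was lower in females by 0.10 on the log2 scale (adjusted p = 0.0056), with medians of 35.8 and 38.4 CPM. Csnk1d was also lower in females, with a difference of -0.07 ± 0.028 (adjusted p = 0.035). Both of the smaller differences lost their call without the first male replicates (adjusted p = 0.13 and 0.25) and without the second female replicates (0.21 and 0.11), and that of Csnk1d also without the second male replicates (0.15) and under upper-quartile scaling (0.15). The female minus male difference was 0.19 ± 0.11 for Fbxl21 (adjusted p = 0.20). For Btrc it was -0.10 ± 0.042, with an adjusted p of 0.057, and of 0.030 without the control CT8 library rich in ribosomal RNA.

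The fasting effect differed between the sexes for 0 of 5 genes by edgeR (12.4% of all genes), and limma-voom and DESeq2 also called 0. At an unadjusted p under 0.05 each of the 3 tools had 1 gene. In edgeR's fit it was Fbxl21, whose fasting effect was more negative in females, with a female minus male difference of -0.36 ± 0.17 (adjusted p = 0.18). For the other 4 genes this difference lay between -0.07 ± 0.063 (Btrc) and 0.07 ± 0.044 (Fbxw11).

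The ratio of paralogues within a library was compared by a permutation test that exchanged labels over all 36 fasted and 36 control libraries, without regard to time or sex. The log2 ratio of Btrc to Fbxw11 was -1.27 ± 0.22 (SD) in control and -1.47 ± 0.34 in fasted livers, so that Btrc lost ground by 0.20 on the log2 scale, with a fasted minus control difference of -0.20 (permutation p = 0.0036, adjusted over 2 ratios 0.0072). The fasted mean was lower at all but 2 of the 9 times. The adjusted p was 0.26 in males alone and 0.086 without the second female replicates. The log2 ratio of Csnk1d to Csnk1e was 2.98 ± 0.25 in control and 2.91 ± 0.28 in fasted livers, a difference of -0.07 (permutation p = 0.26, adjusted 0.26). This ratio had a control mean of 3.17 in males and 2.79 in females. With labels exchanged only within a time and sex, an alternative chosen after seeing the data, the adjusted permutation p was 0.055 for this ratio and 0.00032 for Btrc to Fbxw11.

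**Figure D4:**
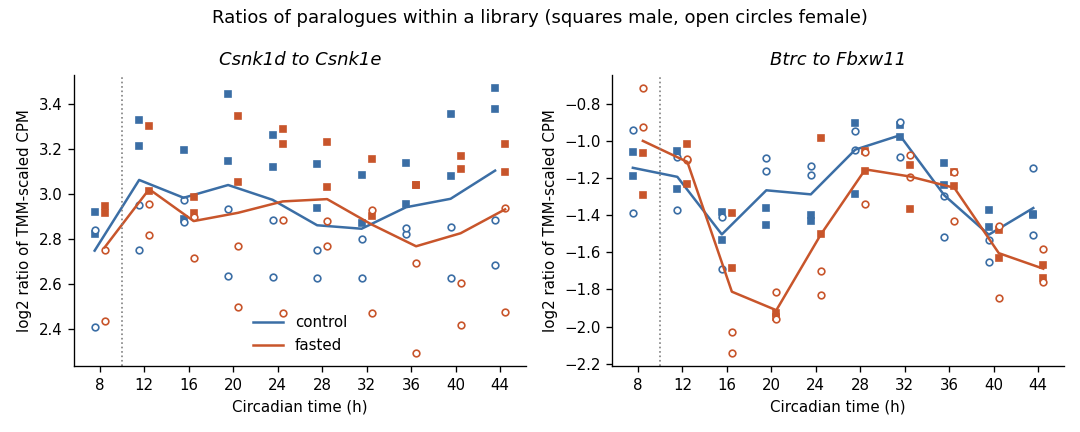
Log2 ratio of TMM-scaled CPM of the paralogues in each library (vertical axes) against circadian time in h (horizontal axes). Squares are males, open circles females, and lines join means of 4 libraries. The fasted Btrc to Fbxw11 ratios run from -2.14 to -0.99 between CT12 and CT44 and the control ratios from -1.69 to -0.90, and female Csnk1d to Csnk1e ratios lie mostly below male ones.

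Exon usage was tested on counts of exon bins, which are numbered pieces of a gene without coordinates in the files. With fasting, 0 of 5 genes were called by edgeR's Simes test, where 14.3% of 13889 genes were, and 2 had an unadjusted p under 0.05 (Fbxl21 and Fbxw11). limma's diffSplice called 0 and gave 4 unadjusted, and edgeR's F test per gene called Fbxw11 (adjusted p = 0.0047). In Fbxw11 21 of 22 bins were tested, and the bin with the smallest p, bin 8, held 0.956% ± 0.37 (SD, n = 36) of the gene's bin counts in control and 0.802% ± 0.36 in fasted livers. Its adjusted p as a bin was 0.072 by edgeR and 0.035 by diffSplice, which also gave bin 34 of Btrc an adjusted p of 0.0499, the 2 bins of the 5 genes under the threshold there. In Fbxl21 7 of 14 bins had enough counts, and its leading bin had a mean of 8.17 counts in control and 4.83 in fasted libraries (adjusted p = 0.14 as a bin).

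The substrates of these enzymes moved in different directions with fasting. Of the 5 PER and CRY genes 2 rose, 2 fell and 1 did not pass. Per1 rose by 1.46 ± 0.11 on the log2 scale and Cry2 by 0.24 ± 0.045, whereas Per2 (-0.64 ± 0.073) and Per3 (-0.39 ± 0.11) fell and Cry1 differed by -0.07 ± 0.068. In control livers all 5 were rhythmic, and peak and trough were 3.85 apart (log2) for Per3, which peaked at CT11.3, and 3.12 for Per1, which peaked at CT12.2. The values were 2.81 for Cry1, 2.66 for Per2 and 0.59 for Cry2, and Cry2 was thus the substrate gene whose value lay below the 0.69 of Fbxl21.

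Other enzymes of the same steps were counted from fixed lists. Of 4 further casein kinase 1 genes, 2 rose and 0 fell with fasting, Csnk1g3 by 0.25 ± 0.038 and Csnk1a1 by 0.17 ± 0.018, and 3 were rhythmic in control livers. Of 10 other kinases that act on clock proteins, 7 rose and 3 fell, and the median difference was 0.12. Gsk3a, a glycogen synthase kinase, rose by 0.47 ± 0.020, Dyrk1a by 0.32 ± 0.035 and Mapk8 by 0.19 ± 0.027, whereas Prkaa2, a catalytic subunit of the AMP-activated kinase, fell by 0.23 on the log2 scale. Among 6 catalytic genes of phosphatases that oppose the kinases, 4 rose and 1 fell, with a median of 0.25. The 4 were Ppp1cc (0.42 ± 0.024), Ppp2ca (0.34 ± 0.018), Ppp2cb (0.33 ± 0.033) and Ppp1cb (0.18 ± 0.020).

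The shared machinery of ubiquitination also moved in both directions. Of 8 genes for the SCF core and its neddylation, 5 rose and 2 fell, with a median of 0.07. Cul1, the scaffold of the SCF complex, rose by 0.26 ± 0.024 and Ube2m, which charges cullins with NEDD8, by 0.16 ± 0.027, while Nedd8 itself fell by 0.16 on the log2 scale. Of 11 other ligase genes linked to the clock, 6 rose and 3 fell, among them Fbxl8 (-0.24 ± 0.063), Siah2 (-0.20 ± 0.045), Ube3a (0.20 ± 0.024) and Ddb1 (0.16 ± 0.029). All 4 deubiquitinase genes of the list rose, Usp2 by 0.42 ± 0.090 and Usp9x by 0.20 ± 0.019, and Usp2 had the largest control rhythm in these lists, 3.88 (log2) between trough and a peak at CT12.3. Since 29.5% of all genes rose and 32.9% fell, these counts describe the lists and are no test of them.

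Likeness of profile was described by Pearson's r of mean log2 CPM over the 20 groups of treatment and time, among 11575 other genes (11576 for Fbxl21). The groups share treatment, time and libraries, so that r is a description. Among the 5 genes themselves, r was 0.81 between Csnk1d and Csnk1e, 0.87 between Fbxl21 and Btrc, and -0.80 between Csnk1d and Btrc. The most similar other genes were Fosl2 (0.96), Anapc16 (0.94) and Rnf214 (0.94) for Csnk1d, and Frs2 (0.97), Strbp (0.95) and Atg2b (0.95) for Csnk1e. For Btrc they were Add1 (0.95), Agk (0.95) and Anapc2 (0.94), for Fbxl21 Bnip1 (0.94), Nlrx1 (0.91) and Dmap1 (0.90), and for Fbxw11 Usp14 (0.92), Plaa (0.92) and Eif4g3 (0.91).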

How the data were processed

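Polyadenylated RNA of 80 livers was sequenced as stranded libraries. The authors deposited raw counts per gene, raw counts per exon bin and a normalised table, and the submitters' processing notes name Trimmomatic, HISAT2, DESeq2 and the build GRCm39 without versions. The counting program, its annotation and its strand setting are not given in the sources used here. The 80 columns of the normalised table were not used. Groups were taken from the sample titles, since the characteristics contradict them in 40 libraries for sex and in 40 for treatment.

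Genes were filtered with filterByExpr, scaled by TMM and tested with edgeR's quasi-likelihood test (edgeR 4.0.16, R 4.3.3). The model had 1 mean for each treatment, time and sex, 40 means of 2 libraries each. The Benjamini-Hochberg adjustment ran over all genes tested, and the threshold was 0.05. Rhythms were fitted as 24 h cosines with sex, over CT8 to CT44 in control livers and CT12 to CT44 with a linear change in fasted livers. limma 3.58.1 (voom, diffSplice) and DESeq2 1.42.0 served as alternatives. Ratios were compared by a two-sided permutation test of 100000 resamples. The 5 genes and the lists were chosen with earlier results of these data known. Of each list at most 4 genes were named, those with the largest called mean fasting effect, plus at most 2 with the largest called control rhythm. For likeness the 3 genes with the highest r were named, among genes with a mean log2 CPM of at least 1. Replicates are separate mice, and in the tests of genes by group the p-values measure the spread between them. In the cosine fits the spread also holds departures from the fitted curve. In the ratio test with labels exchanged over all libraries it also holds differences between times and sexes.

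Of the exon columns, 77 of 80 were matched best by the gene library of the same name, and the 3 others were fasted CT40 columns, so that fasted CT40 was used as 4 libraries without sex. Rows without a bin (8.28 to 25.9% of a column) were left out. The tests were tested on simulated data.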

Additional observations from a re-analysis of the deposited data

Results flagged for a closer look

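In 2 of 100 groups of 4 libraries, 1 library lay far from the other 3 by Dixon's criterion (the gap to the nearest library over the whole range), where chance marks about 5. Csnk1e stood at 11.7 CPM in the second fasted female at CT8, with 9.01 to 9.22 CPM in the others. Btrc stood at 13.6 CPM in the first fasted female at CT28, with 17.8 to 18.7 CPM in the others.

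The fasting effect differed among the 9 times after food removal for Fbxl21 (adjusted p = 0.0237, edgeR), Btrc (adjusted p = 0.0291) and Fbxw11 (adjusted p = 0.0364).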

How the results depend on the processing

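The number of genes called in the mean fasting effect was 5, and 3 in males alone and 3 leaving out CT20. The 18 calls at single times became 6 with no filter on low counts, 9 in males alone, 8 in females alone and 6 to 16 when a set of replicates was left out, which leaves 1 library in some cells that is assumed to vary like the others. The 3 genes whose effect varied among times became 0 with no filter, 0 in males alone, 1 in females alone, 1 with no sex in the model, 0 at an adjusted p under 0.01 and 0 to 1 with replicates left out. The 3 sex differences in control livers became 1 with no filter, 1 with the replicate block and 1 to 3 with replicates left out. The 4 differing rhythms became 0 with no filter, 0 in males alone, 0 in females alone, 1 at an adjusted p under 0.01 and 1 to 2 with replicates left out. Exon usage went from 0 genes to 1 with the F test per gene. The fasted minus control Btrc to Fbxw11 ratio was -0.13 in males alone and -0.24 to -0.15 with replicates left out. Where fewer libraries were used the fit had fewer samples, and otherwise the cause was not tested. Of the results for single genes under an alternative, 1134 kept their side of the threshold, 143 lost it, 18 gained it and 0 reversed. These counts pool results that were called in the main fit with results that were not, and only the former could lose a call. Results on rhythm and on differences among times carry no sign here and could not count as reversed. Same-numbered libraries deviated together in some of the 20 pairs (r of -0.154 to 0.499, median 0.00044, 5 of 20 over 0.1). The highest r was that of males at CT16. Whether same-numbered libraries share more than a number was not tested. With the replicate block 5 genes were called in the mean and 18 pairs at single times. The low counts of Fbxl21 limit its single-time and exon results.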
